A study of Mus musculus with 4 samples.

Results

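The 38 genes described here encode integrin chains, selectins and their ligands, counter-receptors of the immunoglobulin superfamily, junction molecules and cadherins, and they were taken by symbol from a fixed list. All 38 were measured, among 18193 genes in all, each by the probe set with the highest mean over the arrays. The values come from 4 Affymetrix MOE430_2 arrays that compare 2 subsets of the common lymphoid progenitor (CLP), a marrow cell that can give rise to B, T, natural killer and some dendritic cells. CLP_RAGhigh and CLP_RAGlow cells were sorted from the bone marrow of C57Bl6 mice aged 8 to 12 weeks, as fractions with high or low GFP, with 2 arrays per group and RNA from 2000 cells per array. RAG is the recombinase that assembles antigen receptor genes. The labels name no transgene or reporter allele behind the GFP, so what the GFP construct carries in both groups is not given in the sources used here. The replicates are called biological, but nothing says that they came from separate mice or sorts. The p-values then reflect only how far these samples spread, which may be technical.

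Integrins are pairs of one alpha and one beta chain that bind matrix proteins or receptors on other cells, and a chain reaches the cell surface only with a partner. On marrow progenitors, alpha4 beta1 binds VCAM-1 and fibronectin, alphaL beta2 binds the ICAMs, and alpha4 beta7 binds MAdCAM-1 of gut vessels. Selectins start the rolling of cells on endothelium through sialylated and fucosylated ligands such as PSGL-1, and CD44 binds hyaluronan.

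The groups were checked first. Rag1, a subunit of the recombinase, had log2 values of 10.92 and 10.62 on the CLP_RAGhigh arrays and 7.72 and 8.53 on the CLP_RAGlow arrays. All 5 CLP marker genes (Il7r, Flt3, Kit, Cd93 and Cd27) lay above the median probe set on all 4 arrays. Median intensities ran from 14.5 to 14.8 on the linear scale, and correlations between arrays across genes, which are not independent replicates, ran from 0.963 to 0.976. The CLP_RAGlow arrays correlated at 0.976. The CLP_RAGhigh arrays correlated at 0.963, no higher than arrays of different groups, at 0.963 to 0.969. Array number limits the precision of every value. The calcium-binding gene S100a8, abundant in granulocytes, was at 3.81 on CLP_RAGlow replicate 2 and between 9.60 and 10.15 on the other arrays, and S100a9 was at 3.79 there and between 7.83 and 8.44 elsewhere. Log2 values of different genes come from different probe sets and are not set against each other. A gene is called dim where a group mean lies below 3.88, the log2 median over all probe sets, since no detection calls were used here.

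For 32 of the 38 adhesion genes the arrays of the 2 subsets overlapped, and the lowest p of the members was that of Itgb7, whose mean was 2.59-fold lower in CLP_RAGhigh. No member passed the test over all genes (limma, 0 of 38 at an adjusted p under 0.05, smallest adjusted p = 0.745), nor did any other gene, a background of 0%. Without adjustment, 1 member, Itgb7, had a limma p under 0.05 and was lower in CLP_RAGhigh, and 0 were higher. Over all genes those shares were 2.94% lower and 2.35% higher. The groups did not overlap for 6 members. For 2 of them, Itga4 and Itgae, CLP_RAGhigh was the higher group, as for 15.4% of all genes. CLP_RAGhigh was the lower group for 4, Itgb7, Itgb8, Selplg and Jam2, as for 15.8% of all genes. These counts are near or below the background. The median member difference was -0.07 on the log2 scale against 0.00 over all genes, with 14 means higher and 24 lower in CLP_RAGhigh. Both groups were at or above the dim level for 21 members, 15 were dim in both groups, and Itgb3 and Jam3 were dim in 1. In sorted bulk RNA, fewer cells that express a gene and less of its RNA per cell cannot be told apart.

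**Figure D1:**
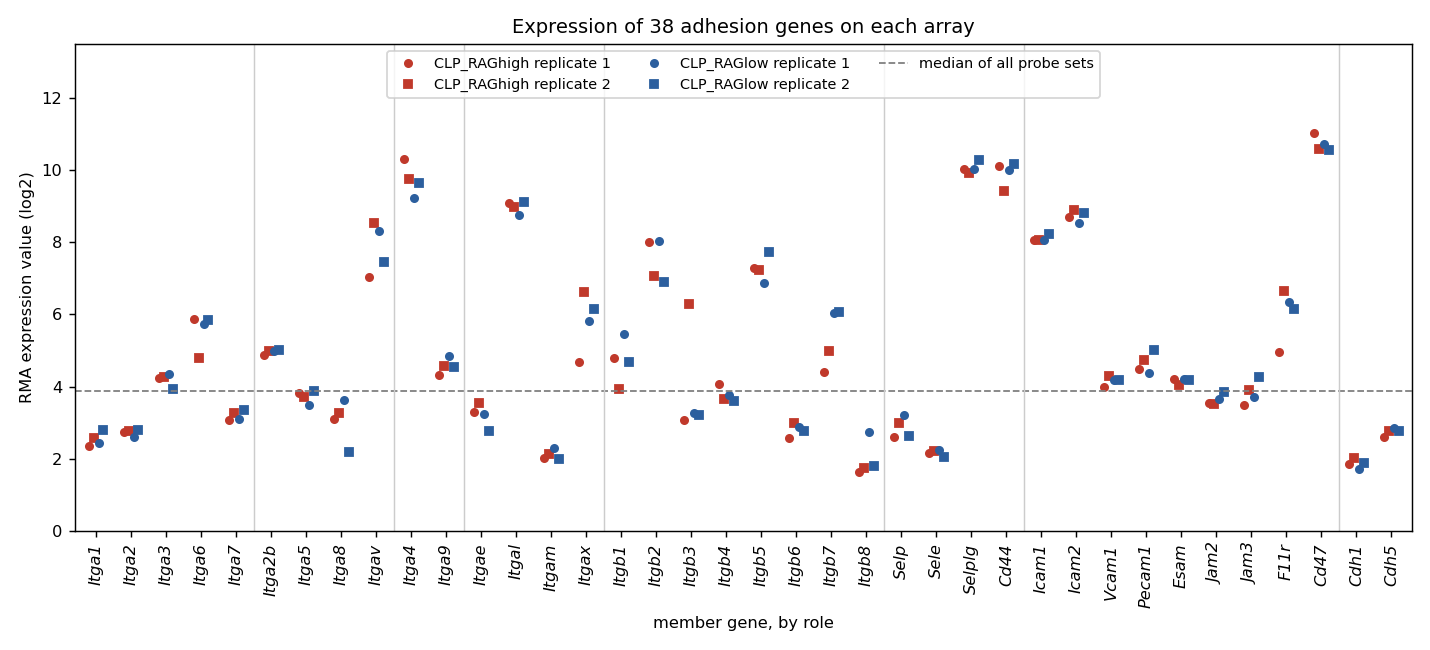
RMA expression value (log2, vertical axis) of the 38 genes on each of the 4 arrays, grouped by role along the horizontal axis; each point is 1 array, red for CLP_RAGhigh and blue for CLP_RAGlow, and the dashed line is the median of all probe sets (3.88). Points of the 2 colours are mixed for most genes, while both red points of Itgb7 (4.41 and 4.98) lie below both blue ones (6.04 and 6.08).

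The alpha4 chain (Itga4) and one of its partners, beta7 (Itgb7), are shown with the sequence around their annotated start, since these are the chains with the lowest p-values of the alpha and the beta genes. Each sequence runs 5′ to 3′ on the strand of the gene, spans 300 bases across the start with most of them before it, and is credited to RefSeq on build GRCm38.p6. The Itga4 sequence lies at chr2:79255176-79255475 on the plus strand and the Itgb7 sequence at chr15:102231886-102232185 on the minus strand. Capitals mark matches, on either strand, to TGTGGT (bound by RUNX factors), GAGGAA (a purine-rich core of the kind bound by the ETS factor PU.1), AGATAA (bound by factors of the GATA family) and CAGNTG (an E-box bound by E proteins).
Itga4: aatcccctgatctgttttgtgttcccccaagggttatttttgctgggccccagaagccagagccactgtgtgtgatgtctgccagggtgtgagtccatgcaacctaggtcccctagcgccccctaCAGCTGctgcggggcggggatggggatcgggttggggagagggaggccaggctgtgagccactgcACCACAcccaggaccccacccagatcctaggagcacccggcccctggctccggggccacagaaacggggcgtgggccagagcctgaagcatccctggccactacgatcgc
Itgb7: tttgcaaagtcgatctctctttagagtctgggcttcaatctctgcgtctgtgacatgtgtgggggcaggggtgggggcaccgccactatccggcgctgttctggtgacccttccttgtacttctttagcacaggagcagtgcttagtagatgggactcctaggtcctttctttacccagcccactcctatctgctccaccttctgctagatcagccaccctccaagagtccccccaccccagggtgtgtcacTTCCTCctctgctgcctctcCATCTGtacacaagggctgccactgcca
The Itga4 sequence held 1 match to the RUNX letters and 1 to the E-box, both before the start. The Itgb7 sequence held 1 match to GAGGAA and 1 to the E-box, both after the start, and 0 to the RUNX letters. Of all 32851 such sequences, 16.8% held the RUNX letters, 28.3% the ETS letters, 11.2% the GATA letters and 51.4% the E-box. Sequences were found for 22 of the 38 genes, 25 in all. Of these 25, the RUNX letters were in 3, the ETS letters in 11, the GATA letters in 2 and the E-box in 16. A match describes letters in this window and is not evidence of binding.

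Itgb7 encodes the chain that pairs with alpha4 or with alphaE (Itgae). Its log2 values were 4.41 and 4.98 on the CLP_RAGhigh arrays and 6.04 and 6.08 on the CLP_RAGlow arrays. The groups did not overlap, and the CLP_RAGlow arrays were almost equal. The means were 4.69 ± 0.40 and 6.06 ± 0.03 (SD, n = 2 each). The difference, CLP_RAGhigh minus CLP_RAGlow, was -1.37 ± 0.36 (SE from limma), with a 95% confidence interval from -2.26 to -0.48, an unadjusted limma p of 0.00952 and an adjusted limma p of 0.745. With an offset of 32 on the linear scale, which damps changes of weak signals, the difference was -0.77. Leaving out a CLP_RAGlow array, of which the values were almost equal, gave -1.39 without replicate 1 and -1.35 without replicate 2. Leaving out a CLP_RAGhigh array moved the difference more, to -1.09 without replicate 1 and -1.66 without replicate 2. The gene had 1 probe set, so no second one tests this value.

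The marker lists of other cell types were read in the same comparison, and no gene of these lists passed adjustment over all genes (limma). Of 10 granulocyte and monocyte markers 9 were measured, 4 with the higher and 5 with the lower mean in CLP_RAGhigh. Their summed linear intensity overlapped between the groups, at 3650 and 3500 in CLP_RAGhigh and 4560 and 3360 in CLP_RAGlow. The lowest sum was that of CLP_RAGlow replicate 2, where S100a8 and S100a9 had linear intensities of 14 and 13.8. On CLP_RAGlow replicate 1 they had 1130 and 348. Sums without these genes were not computed. The receptor genes Csf1r, for the macrophage growth factor M-CSF, and Csf3r, for G-CSF, were the 2 of this list whose CLP_RAGhigh arrays both lay below the CLP_RAGlow ones. Csf1r read 6.79 and 8.26 against 9.31 and 9.54, a difference of -1.90 ± 0.52 with an unadjusted limma p of 0.0117, or -1.25 with its 3 probe sets averaged, and Csf3r differed by -0.83 ± 0.36. The granule protease gene Elane lay the other way at 0.41 ± 0.30, or 0.15 with the offset of 32, with groups apart. Mpo, myeloperoxidase, differed by 0.03 ± 0.18. The upward means of S100a8 (2.63 ± 1.89) and S100a9 (1.77 ± 1.41) came from the single low array named above. The remaining measured markers had lower means with groups that overlapped: Prtn3 (-1.05 ± 0.84), Lyz2 (-0.51 ± 0.49) and Ctsg (-0.32 ± 0.43).

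Of 6 dendritic markers 5 were measured, 2 with the higher and 3 with the lower mean. Their sums were lower in CLP_RAGhigh without overlap, at 494 and 1120 against 1130 and 1270, though 1120 and 1130 nearly touched. Most of each sum was Ccr9, whose groups overlapped, with linear intensities of 362 and 1010 against 935 and 1120. Bst2 differed by -0.90 ± 0.39 and Siglech by 0.31 ± 0.31, each with groups apart. Of 7 erythroid markers 5 were measured, 3 with the higher and 2 with the lower mean, and their sums overlapped, at 717 and 283 against 457 and 343. Klf1, an erythroid transcription factor, read 6.94 and 6.05 against 5.24 and 3.69, a difference of 2.02 ± 0.62 with an unadjusted limma p of 0.0179. The groups overlapped for the other 4 erythroid markers. Car2 differed by -0.26 ± 0.50, and Car1 was at 7.15 on CLP_RAGhigh replicate 1 and between 3.67 and 4.30 on the other arrays. Of 7 T and natural killer markers 6 were measured, with differences from -0.07 to 0.26. Their sums were higher in CLP_RAGhigh without overlap, at 736 and 789 against 631 and 716, and most of each sum was Nkg7. Groups were apart for Nkg7 (0.19 ± 0.24) and Cd8a (0.26 ± 0.31) and overlapped for the other 4. B-lineage markers had summed intensities of 2150 and 1800 against 396 and 380 over 6 of 7 genes. Most of each CLP_RAGhigh sum was Vpreb1, with linear intensities of 1680 and 1350 against 185 and 160. At an unadjusted limma p under 0.05, 4 of the 6 were higher in CLP_RAGhigh, where the share over all genes was 2.35%. The dim Ms4a1 lay the other way at -0.39 ± 0.22, with groups apart, and the groups overlapped for Igll1. The part of these cell types in the Itgb7 difference was not tested.

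Itga4 encodes the chain shared by alpha4 beta1 and alpha4 beta7. Its values were 10.30 and 9.77 in CLP_RAGhigh and 9.23 and 9.65 in CLP_RAGlow. The groups did not overlap, though CLP_RAGhigh replicate 2 and CLP_RAGlow replicate 2 were close. The difference was 0.59 ± 0.29, or 1.51-fold, with an interval from -0.13 to 1.31 and an unadjusted limma p of 0.0892. Leaving out 1 array gave values from 0.33, without CLP_RAGhigh replicate 1, to 0.86, without CLP_RAGhigh replicate 2. All 5 Itga4 probe sets had the higher mean in CLP_RAGhigh, by 0.00 to 1.70. The second brightest, named here after its values were seen, read 7.33 and 6.76 against 5.34 and 5.34, a difference of 1.70 ± 0.38 with a limma adjusted p of 0.888 over 34945 probe sets. The probe sets of one gene share its RNA and are not replicates.

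Itgb1, the beta chain with the most alpha partners, read 4.78 and 3.92 in CLP_RAGhigh and 5.46 and 4.69 in CLP_RAGlow. CLP_RAGhigh replicate 1 lay just above CLP_RAGlow replicate 2, so the groups overlapped. The difference was -0.73 ± 0.44, with an interval from -1.83 to 0.37, and was -0.33 with the offset. Of its 6 probe sets, 5 had a lower mean in CLP_RAGhigh and 1 a higher one, from -1.14 to 0.16. The second brightest, also named after its values were seen, gave 4.57 and 3.69 against 5.89 and 4.65, which do not overlap.

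Itgb2, the chain common to the leukocyte integrins, read 8.01 and 7.07 in CLP_RAGhigh and 8.03 and 6.90 in CLP_RAGlow. The arrays of replicate 1 were high and those of replicate 2 low in both groups, and the group difference was 0.08 ± 0.54. Its LFA-1 partner Itgal read 9.10 and 8.97 against 8.75 and 9.13, a difference of 0.10 ± 0.28 with an interval from -0.60 to 0.79. Itgax, which encodes the dendritic cell chain CD11c, was at 4.67 on CLP_RAGhigh replicate 1 and between 5.81 and 6.63 on the other arrays. Itgam, the alpha chain of Mac-1 on myeloid cells, was dim on every array, from 2.00 to 2.31. Itgae, which pairs with beta7, was dim too, at 3.30 and 3.54 against 3.25 and 2.77, and its difference of 0.41 was 0.09 with the offset.

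Itgb3, which pairs with alphaIIb on platelets and with alphaV elsewhere, had the largest upward difference of the members, 1.43 ± 0.98, and it rested on 1 array. CLP_RAGhigh replicate 2 read 6.28, while CLP_RAGhigh replicate 1 read 3.06 and the CLP_RAGlow arrays 3.27 and 3.20. Without CLP_RAGhigh replicate 2 the difference was -0.18, and without CLP_RAGhigh replicate 1 it was 3.04. The second Itgb3 probe set was flat, from 3.44 to 3.75. The platelet alpha chain Itga2b stayed between 4.87 and 5.01 on all 4 arrays. Of 9 megakaryocyte and platelet markers 7 were measured, 5 of them dim on each array, with a summed intensity between 99.8 and 122 on every array.

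Itgav, a receptor chain for vitronectin and other proteins with the RGD motif, spread widely, at 7.03 and 8.55 against 8.32 and 7.46. Each group held a high and a low array, and the difference was -0.10 ± 0.60. Its partner Itgb5 read 7.28 and 7.22 against 6.86 and 7.72, with CLP_RAGlow arrays on both sides of the CLP_RAGhigh pair. Itgb8, another alphaV partner, was dim, at 1.63 and 1.75 against 2.73 and 1.79, and its difference of -0.57 ± 0.30 came to -0.07 with the offset. Itga5, the alpha chain of the main fibronectin receptor, was dim as well, between 3.50 and 3.89 on all arrays.

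Among laminin and collagen receptors, Itga6, a laminin-binding chain of early progenitors, read 5.87 and 4.78 in CLP_RAGhigh and 5.74 and 5.86 in CLP_RAGlow. CLP_RAGhigh replicate 2 was the low array, the groups overlapped, and the difference was -0.48 ± 0.46. Its dimmer probe set, named after its values were seen, gave 2.67 and 2.49 against 4.71 and 4.27, a difference of -1.91 ± 0.27 with a limma adjusted p of 0.555 over all probe sets. Both probe sets thus pointed down in CLP_RAGhigh, to unequal extents, and their average gave -1.19. Itga1, Itga2 and Itga7 were dim in both groups, and Itga3 lay between 3.94 and 4.36, with differences from -0.15 to 0.11 for these 4 genes. Itgb4, the partner of alpha6 in hemidesmosomes, and the epithelial chain Itgb6 were dim and differed by 0.17 and -0.05.

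Itga9, a relative of alpha4 that also pairs with beta1, had a probe set conflict. The brightest read 4.33 and 4.57 in CLP_RAGhigh and 4.84 and 4.54 in CLP_RAGlow, a difference of -0.24 ± 0.30. Another, named after its values were seen, read 4.79 and 5.33 against 3.31 and 3.02, a difference of 1.89 ± 0.33 with a limma adjusted p of 0.745 over all probe sets. The average of its 3 probe sets was 0.66 higher in CLP_RAGhigh, so the direction for this gene depends on the probe set. Itga8 differed by 0.27 ± 0.47 and was dim, with CLP_RAGlow replicate 2 as its low array at 2.19.

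**Figure D2:**
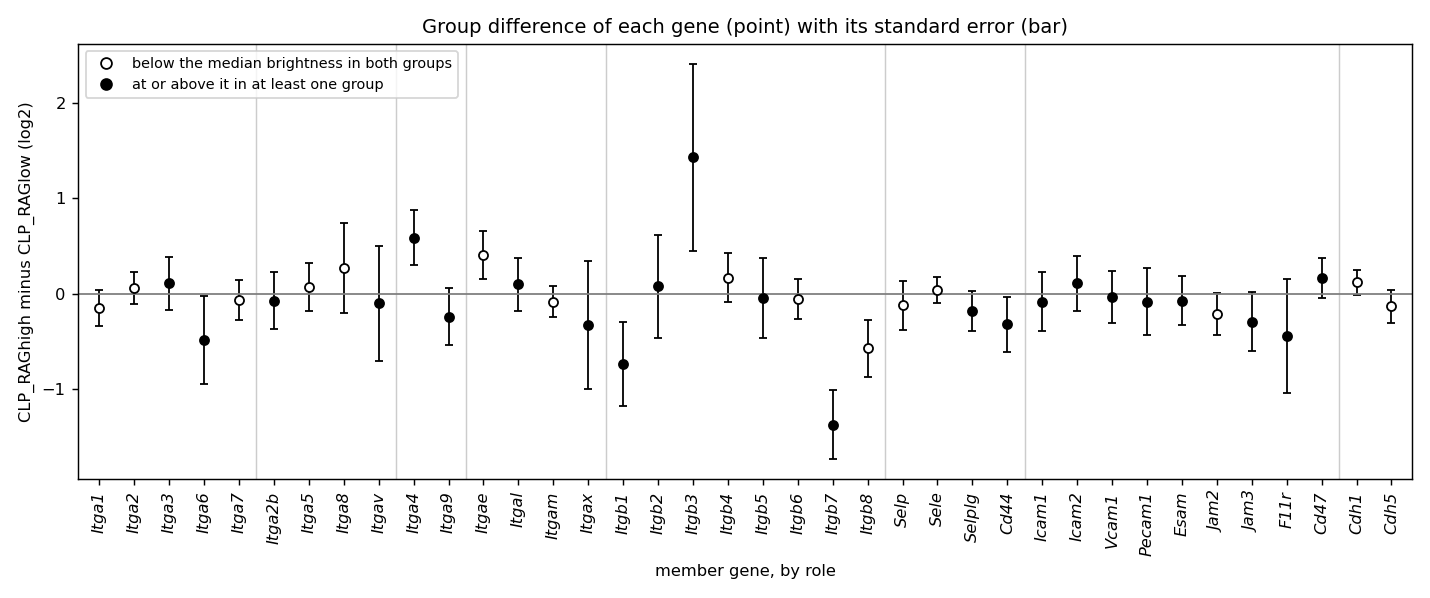
Difference between the groups (CLP_RAGhigh minus CLP_RAGlow, log2, vertical axis) for each of the 38 genes, with the standard error from limma as a bar; open points are genes dim in both groups. Itgb7 at -1.37 is the one gene whose unadjusted p was under 0.05, and the long bar of Itgb3 at 1.43 reflects a single high array.

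Among the rolling receptors and ligands, Selplg and Cd44 were above the median probe set. Selplg, which encodes PSGL-1, read 10.03 and 9.93 in CLP_RAGhigh and 10.04 and 10.28 in CLP_RAGlow. The groups did not overlap but nearly touched, and the difference of -0.18 ± 0.21 had an interval from -0.69 to 0.33. Cd44 read 10.13 and 9.42 against 10.01 and 10.17, with CLP_RAGhigh replicate 2 as the low array and a difference of -0.32 ± 0.29. The 4 Cd44 probe sets spanned -0.32 to 0.56, and averaging them turned the sign to 0.04. The endothelial selectins Selp and Sele were dim on all arrays, at most 3.20.

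Of the counter-receptors, Icam1 and Icam2, ligands of LFA-1, were above the median probe set and differed by -0.08 ± 0.31 and 0.11 ± 0.29. Icam1 read 8.06 and 8.07 against 8.06 and 8.23, and Icam2 read 8.70 and 8.89 against 8.55 and 8.82. Cd47, the signal that restrains phagocytes through SIRP-alpha, read 11.04 and 10.59 against 10.73 and 10.57. That is a difference of 0.17 ± 0.21, with an interval from -0.35 to 0.68, and the 5 probe sets ran from -0.80 to 0.17. Vcam1, the stromal and endothelial ligand of alpha4 beta1, had means of 4.15 ± 0.21 and 4.18 ± 0.00 (SD, n = 2 each). F11r, a junction molecule also found on leukocytes, was at 4.97 on CLP_RAGhigh replicate 1 and between 6.15 and 6.65 on the others, so 1 array set its difference of -0.44 ± 0.60.

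Molecules of endothelial junctions were near or below the median probe set. Pecam1 differed by -0.08 ± 0.35, and Esam, also a marker of stem cells, by -0.07 ± 0.26. Jam2 read 3.54 and 3.53 against 3.66 and 3.84 and differed by -0.21, or -0.06 with the offset. Jam3, which marks stem cells too, differed by -0.29 ± 0.31. The cadherins Cdh5 of endothelium and Cdh1 of epithelium were dim, at most 2.85 on any array. The 10 endothelial and stromal markers had summed intensities of 139 and 166 in CLP_RAGhigh and 152 and 158 in CLP_RAGlow, and 5 to 7 of them were below the median probe set on each array.

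Probe sets of one gene often had differences of unlike sign, some of them close to 0, as for Itga3 (-0.01 to 0.16). The 38 genes had 86 probe sets, and 16 genes had a single one. Of the 22 genes with several, 17 had probe sets on both sides of 0 and 5 had all on one side. The same count was not made over all genes, so it has no background beside it. Counted by probe set, the groups did not overlap for 11 that were higher and 12 that were lower in CLP_RAGhigh, where the shares over all 34945 probe sets were 15.5% and 15.2%.

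**Figure D3:**
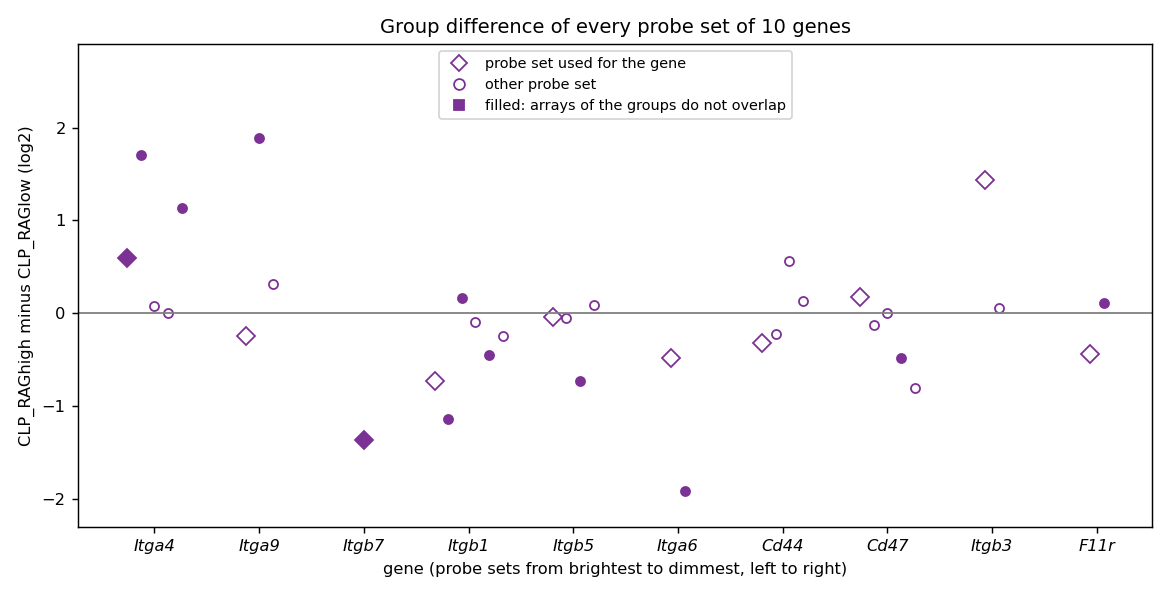
Group difference (log2, vertical axis) of every probe set of 10 genes, from the brightest to the dimmest within each gene; diamonds are the probe sets used, circles the others, and filled symbols have arrays that do not overlap between groups. All Itga4 probe sets lie at or above 0, up to 1.70, while those of Itga9 lie on both sides, from -0.24 to 1.89.

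Other genes of the adhesion pathways were read from lists of 73 genes, of which 65 were measured and the other 8 were not analysed here. At an unadjusted limma p under 0.05, 1 gene lay above (Cyth1) and 1 below (Ctnna1), where the shares over all genes were 2.35% and 2.94%. None passed after adjustment over all genes (0 of 65). The groups did not overlap for 14 that were higher and 10 that were lower, and the median difference was 0.02. These genes, too, are read against the shares over all genes given above, 15.4% and 15.8% for groups that do not overlap.

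The genes of integrin activation, which switch integrins to the binding state from inside the cell, were mixed. Of 17 measured, 11 had the higher mean in CLP_RAGhigh and 6 the lower. The groups did not overlap for 7 above and 2 below, where the shares over all genes were 15.4% and 15.8%. More thus lay above on the probe sets used, but Tln2, 1 of the 7, came to -0.02 with its probe sets averaged. Cyth1 encodes cytohesin-1, which binds the beta2 tail, and it read 10.02 and 9.29 against 8.53 and 8.57. The groups did not overlap, and the difference was 1.10 ± 0.33 with an unadjusted limma p of 0.0164, or 0.47 with its 2 probe sets averaged. Fyb, the adaptor ADAP, differed by 0.62 ± 0.32 (0.34 averaged over its probe sets), and Tln1, talin, which binds beta tails, by 0.53 ± 0.33. The talin value turned to -0.61 with its probe sets averaged. Rap1a, a small GTPase of the pathway, differed by -0.37 ± 0.15, or -0.58 averaged over its probe sets. Fermt3, the kindlin of blood cells, read between 11.88 and 12.02 on all arrays and was named after its values were seen.

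Of 18 measured genes of integrin signalling and the adhesion complex, 9 had the higher and 9 the lower mean. The kinase gene Syk differed by 0.54 ± 0.26 (-0.08 with its probe sets averaged), the linker gene Lims1 by 0.40 ± 0.24, the Src-family kinase gene Fgr by -0.52 ± 0.34 (-0.25 averaged) and the actin crosslinker gene Actn1 by -0.43 ± 0.37. None of these had an unadjusted p under 0.05. Of 14 enzymes and carriers of selectin ligands, 8 were higher and 6 lower in mean. Of the fucosyltransferase genes, Fut4 differed by 1.10 ± 0.53 (0.54 with its 2 probe sets averaged) and Fut7, which completes sialyl Lewis x, by -0.65 ± 0.33, with unadjusted limma p-values of 0.0872 and 0.0968. The galactosyltransferase gene B4galt1 differed by 0.51 ± 0.25 and the tyrosine sulfotransferase gene Tpst1 by 0.56 ± 0.37.

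Among the other integrin, cadherin and catenin genes, Ctnna1, the alpha-catenin that links cadherins to actin, was lower in CLP_RAGhigh. It read 9.25 and 9.22 against 9.91 and 10.19, a difference of -0.82 ± 0.23 with an unadjusted limma p of 0.0129 and -0.41 with its 4 probe sets averaged. Ctnnd1, p120 catenin, differed by -0.48 ± 0.27 (-0.23 averaged over its probe sets), the dim Cdh2 by 0.42 ± 0.17 (0.26 averaged) and the dim Itgbl1 by 0.15 ± 0.19. Among matrix ligands and counter-receptors, Sirpa, the receptor of CD47, read 5.73 and 6.54 against 6.93 and 6.70, a difference of -0.68 ± 0.42, or -0.27 with its 3 probe sets averaged. Fibronectin (Fn1) differed by 0.39 ± 0.24 (0.21 averaged) and the dim vitronectin gene Vtn by 0.21 ± 0.19 (0.14 averaged). Hmmr, a hyaluronan-binding protein that is also a mitotic gene, differed by -1.20 ± 0.79, or -0.50 with its 5 probe sets averaged, with CLP_RAGhigh replicate 1 at 4.66 and the other arrays from 6.29 to 7.51 on the probe set used.

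**Figure D4:**
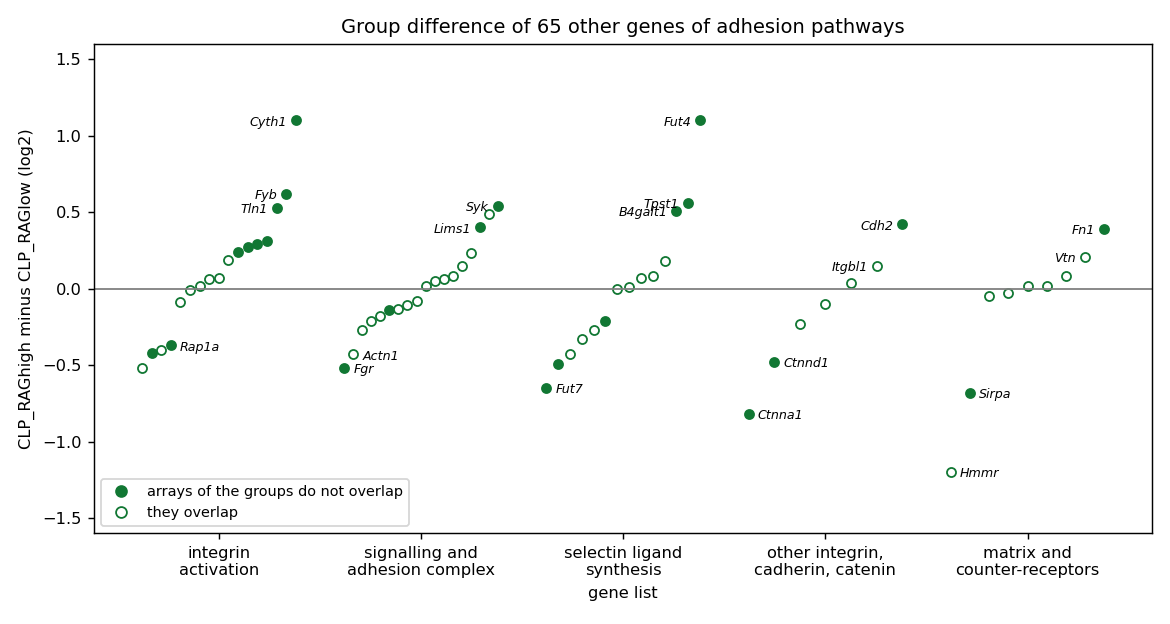
Group difference (CLP_RAGhigh minus CLP_RAGlow, log2, vertical axis) of the 65 measured genes in 5 lists of adhesion pathways, sorted by size within each list; each point is 1 gene, filled where the arrays of the groups do not overlap, and the 4 genes with the smallest p of each list are named. Cyth1 and Fut4 are highest at 1.10, and Hmmr is lowest at -1.20.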

How the data were processed

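Biotin-labelled cRNA of sorted progenitors was hybridised to MOE430_2 arrays, per the labels. The deposited values are intensity values from the RMA algorithm, per the series' design text, on a linear scale as judged from their range. The sources used here do not give the software or any filter. Log2 was taken. Of 45037 probe sets without controls, the platform annotation gave 34945 a single gene, and each gene took its brightest. Groups were compared with limma 3.58.1 in R 4.3.3 (lmFit, eBayes with an intensity trend, two-sided, Benjamini-Hochberg over 18193 genes, 2 residual and 3.75 prior degrees of freedom), and the step was tested on simulated data. The members, gene lists and naming rule (members with an unadjusted p under 0.05 or groups apart by 0.5, integrin chains of lymphoid progenitors, and the 4 smallest p of each pathway list) were chosen with earlier results of these data known. Alternatives were another choice of probe sets, an offset of 32, a brightness filter, quantile normalization, a replicate block, no trend and leaving out each array. Figures were drawn with matplotlib 3.10.9. No genome build is given for the arrays.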

Additional observations from a re-analysis of the deposited data

How the results depend on the processing

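With 2 arrays per group the precision is low, and dim genes carry little signal over background. In all 11 alternatives 0 members passed an adjusted limma p of 0.05, with the smallest adjusted p between 0.547 and 1. Over all genes, where 0 passed in the reported test, 7 passed with the replicate block, 3 with quantile normalization, 2 with probe sets averaged and 1 with dim genes left out. Itgb7 was lower in CLP_RAGhigh in all 11 alternatives, from -1.66 to -0.77. It has 1 probe set and groups that do not overlap. Another choice of probe sets, the offset or leaving out 1 array therefore could not turn its sign. The replicate block, the fit without a trend and the brightness filter leave the estimate itself unchanged, at -1.37. These alternatives do not test the direction. Quantile normalization, which could have turned it, gave -1.34. The unadjusted limma p of Itgb7 was under 0.05 in each alternative that kept all 4 arrays. With the replicate block, 1 member had an unadjusted p under 0.05 and Itgb7 had an adjusted p of 0.651. The deviations of arrays with the same number correlated at -0.02 and -0.02. With 2 arrays per group the deviations of replicate 2 mirror those of replicate 1, so both values are the same quantity. It cannot decide whether the numbers pair the samples. With all probe sets of a gene averaged, 3 members had an unadjusted p under 0.05 (Itga6, Itga8 and Itgb7), and 10 changed sign, since other probe sets enter the value: Itga1 to 0.01, Itga5 to -0.07, Itga8 to -0.51, Itgav to 0.02, Itga9 to 0.66, Itgal to -0.08, Itgb6 to 0.04, Cd44 to 0.04, Vcam1 to 0.03 and Cd47 to -0.25. Quantile normalization turned Vcam1 to 0.00, and the offset of 32 moved the median member difference to -0.02. The causes were not tested. Shares of all genes at an unadjusted p under 0.05 were not computed for the alternatives, so their member counts have no background beside them. Leaving out 1 array gave a median member difference from -0.14 to 0.01. It kept the sign of 12 members and turned that of 26, whose ranges were: Itga1 from -0.32 to 0.03, Itga2 from -0.04 to 0.16, Itga3 from -0.10 to 0.32, Itga6 from -1.02 to 0.06, Itga7 from -0.20 to 0.07, Itga5 from -0.13 to 0.27, Itga8 from -0.45 to 1.0, Itgav from -0.86 to 0.66, Itgal from -0.10 to 0.29, Itgam from -0.24 to 0.07, Itgax from -1.31 to 0.65, Itgb2 from -0.49 to 0.64, Itgb3 from -0.18 to 3.04, Itgb4 from -0.04 to 0.37, Itgb5 from -0.47 to 0.39, Itgb6 from -0.25 to 0.16, Selp from -0.39 to 0.16, Sele from -0.05 to 0.14, Cd44 from -0.67 to 0.04, Icam1 from -0.17 to 0.00, Icam2 from -0.02 to 0.25, Vcam1 from -0.18 to 0.12, Pecam1 from -0.41 to 0.24, Esam from -0.16 to 0.02, F11r from -1.28 to 0.40, Cd47 from -0.06 to 0.39. None of these 26 had been called.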
